A study of Mus musculus with 13 samples.

Results

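The comparison set 3 female ΔEcad melanoma lines (Ma_1057, Ma_1064 and Ma_1069) against 2 female Ecad lines (Ma_1014 and Ma_1039) by their peaks of H3K27ac, the acetylation of lysine 27 on histone H3. Peaks of these 5 lists on the 19 autosomes were joined into 44579 regions where they overlapped or touched. A region was gained when all 3 ΔEcad lists and neither Ecad list had a peak over it, and lost when both Ecad lists and none of the ΔEcad lists had one. By this rule 1442 regions were gained and 5085 were lost. The series held 9 such lists, the other 4 from male lines. All lines came from mouse melanomas with the genotype Tyr::NRAS Q61K, Cdkn2a +/-, Cdh1 F/F, in which the tyrosinase promoter drives a mutant NRAS in pigment cells. ΔEcad mice also carried Tyr::CreA, a Cre recombinase under the same promoter that deletes part of Cdh1, the gene of the cell adhesion protein E-cadherin, in melanocytes, and Ecad mice did not. The NRAS transgene, the loss of 1 Cdkn2a copy and the floxed Cdh1 were therefore shared by both groups, and no line was treated. Each line was 1 culture from a melanoma and gave 1 list, so line and genotype effects are separable only as far as 3 lines against 2 allow.

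H3K27ac marks nucleosomes at active promoters and enhancers, and a peak is a stretch of DNA where the antibody against the mark recovered more fragments than the local background. E-cadherin joins neighbouring cells and binds β-catenin at the membrane. β-catenin is also the nuclear partner of the TCF and LEF transcription factors in Wnt signalling, and several of the genes they switch on encode inhibitors of the pathway. In melanocytes, the neural crest factors SOX10 and PAX3 and the pigment cell regulator MITF keep enhancers of pigment genes active.

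The lists matched their cell type label. Of 7 melanocyte lineage promoters (Sox10, Mitf, Dct, Tyr, Tyrp1, Pmel and Mlana), 7 had a peak in 4 of the female lists and 6 in Ma_1069, which had none at Tyrp1. No fibroblast, endothelial or immune marker promoter had a peak in any of the 5 lists, and of 6 keratinocyte markers Krt10 alone had one, in Ma_1014, Ma_1039 and Ma_1064. The lists held 20350 to 28799 autosomal peaks. Covered length was 44.9 Mb in both Ecad lists and 33.6, 39.0 and 29.1 Mb in Ma_1057, Ma_1064 and Ma_1069. The difference of -11.0 Mb had an exact two-sided permutation p of 0.2, where 5 lists cannot give less than 0.1. The median peak was narrower in ΔEcad (999 ± 43.0 bp, SD, n = 3) than in Ecad (1149 ± 55.9 bp, SD, n = 2), with no overlap between the groups (exact permutation p = 0.1). No list had a peak with a −log10 q below 5, and the read depth behind the lists is unknown, so a region without a peak was one not called at an unknown depth.

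At Cdh1 itself (GRCm38 chromosome 8, 106603351 to 106670246, plus strand) no list had a peak at the promoter or over exons 6 to 10. Peaks outside the deleted part do not test the deletion, and the lists therefore hold no check of the targeted exons. The introns held 8.79 and 7.66 kb of peaks in Ma_1014 and Ma_1039, against 1.66, 2.48 and 3.16 kb in Ma_1057, Ma_1064 and Ma_1069, which did not overlap. The male lists overlapped, at 5.88 and 5.14 kb in Ecad and 4.45 and 7.38 kb in ΔEcad. A region at 106634648 to 106639843 was called in all 5 lists, and 1 at 106625915 to 106626896 was lost.

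The following stretches of 200 bases (GRCm38, plus strand, RefSeq sequence) are centred on the summit of 1 peak of gained and lost regions, the one with the highest percentile within its own list, which is not always the one with the highest −log10 q. In the first Nav2 region the summits of Ma_1057 and Ma_1064 lay at -1171 and -1189 bp from the centre of the window shown. For these lists they lay at -216 and -322 bp at Sp5 and at 167 and 153 bp at Tcf7. At Dchs2 the summit of Ma_1069 lay at -680 bp. All of these fall outside the printed stretches. The first pair are the strongest gained regions and the next pair the strongest lost regions whose window lay outside coding exons and untranslated regions. Capitals mark matches to the searched motifs, which are described with the motif counts.
Nav2, gained, chr7:48899246-48899445: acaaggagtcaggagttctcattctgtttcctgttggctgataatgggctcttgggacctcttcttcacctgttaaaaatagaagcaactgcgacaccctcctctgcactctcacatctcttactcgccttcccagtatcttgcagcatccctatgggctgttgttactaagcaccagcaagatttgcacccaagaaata
Nav2, gained, chr7:49210189-49210388: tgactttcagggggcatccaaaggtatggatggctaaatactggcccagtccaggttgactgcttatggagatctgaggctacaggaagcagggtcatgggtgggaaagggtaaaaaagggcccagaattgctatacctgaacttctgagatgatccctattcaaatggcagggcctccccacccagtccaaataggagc
Creb3l2, lost, chr6:37392768-37392967: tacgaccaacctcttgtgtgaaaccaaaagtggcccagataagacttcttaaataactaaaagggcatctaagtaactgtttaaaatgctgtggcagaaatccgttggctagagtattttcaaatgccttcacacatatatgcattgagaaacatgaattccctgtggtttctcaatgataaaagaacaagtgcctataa
Prdm16, lost, chr4:154586034-154586233: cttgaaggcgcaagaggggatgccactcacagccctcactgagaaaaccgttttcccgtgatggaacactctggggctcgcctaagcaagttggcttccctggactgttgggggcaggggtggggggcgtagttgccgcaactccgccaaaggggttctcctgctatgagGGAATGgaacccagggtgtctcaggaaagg
The next pair are the strongest gained regions away from a start site with a TCF/LEF match inside the window. The last 3 are the strongest gained regions linked to Tcf7, Lef1 and Sp5, the β-catenin pathway genes described below. These lay 488, 24564 and 47147 bp from the nearest coding start site, so the Lef1 and Sp5 stretches are not from their promoters.
Dchs2, gained, chr3:83234892-83235091: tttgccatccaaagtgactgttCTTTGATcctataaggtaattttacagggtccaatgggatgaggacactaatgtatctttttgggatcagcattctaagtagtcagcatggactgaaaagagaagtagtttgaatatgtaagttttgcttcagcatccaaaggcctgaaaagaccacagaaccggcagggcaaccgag
Mpp6, gained, chr6:49984043-49984242: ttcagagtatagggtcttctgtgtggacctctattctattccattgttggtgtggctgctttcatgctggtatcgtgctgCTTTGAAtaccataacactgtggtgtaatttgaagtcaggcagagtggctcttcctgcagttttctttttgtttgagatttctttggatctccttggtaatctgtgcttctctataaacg
Tcf7, gained, chr11:52283922-52284121: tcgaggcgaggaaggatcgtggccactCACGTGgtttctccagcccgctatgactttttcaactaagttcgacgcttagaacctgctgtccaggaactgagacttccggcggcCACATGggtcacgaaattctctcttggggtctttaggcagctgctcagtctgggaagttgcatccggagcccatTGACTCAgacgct
Lef1, gained, chr3:131139642-131139841: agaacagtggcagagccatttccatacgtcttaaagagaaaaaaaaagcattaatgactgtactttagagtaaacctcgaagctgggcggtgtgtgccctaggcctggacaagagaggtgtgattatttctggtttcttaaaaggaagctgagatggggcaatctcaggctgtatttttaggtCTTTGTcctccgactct
Sp5, gained, chr2:70426341-70426540: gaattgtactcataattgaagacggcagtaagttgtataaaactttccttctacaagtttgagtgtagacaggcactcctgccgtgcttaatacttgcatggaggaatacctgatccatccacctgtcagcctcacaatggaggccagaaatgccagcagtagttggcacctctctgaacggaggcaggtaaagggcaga

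The gained regions made up 3.23% of all regions and the lost regions 11.4%. These shares are the outcome of the rule and were not tested. A peak of an Ecad list lay within 2 kb of 7.98% of gained regions and within 10 kb of 33.8%. For lost regions and ΔEcad peaks the shares were 11.9% and 38.1%, so a locus was not always without the mark in the other genotype. The rule is not symmetric, since a gained region needed 3 lists to agree and a lost region needed 2. Leaving out 1 ΔEcad list makes it 2 against 2, which gave 1646 gained and 5599 lost regions without Ma_1057, 2633 and 7400 without Ma_1064, and 3387 and 5623 without Ma_1069. Lost regions were thus 1.66 to 3.4 times as many as gained regions in a balanced comparison, against 3.53 times with all 5 lists. Of the regions that missed the gained set by a single list, 1909 had no peak in Ma_1069, 1158 none in Ma_1064 and 168 none in Ma_1057, while 524 had a peak in Ma_1039 alone of the Ecad lists and 233 in Ma_1014 alone. For the lost set, 3421 regions were missing from Ma_1039 alone of the Ecad lists and 2306 from Ma_1014 alone, while 2278 regions had a peak in Ma_1064 alone of the ΔEcad lists, 533 in Ma_1069 alone and 507 in Ma_1057 alone. The list most often missing from a near-gained region was thus Ma_1069, and from a near-lost region Ma_1039. The weakest gained region, near Raet1d, had −log10 q values of 6.02, 9.20 and 6.49 in Ma_1057, Ma_1064 and Ma_1069.

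Gained regions lay farther from transcription start sites (TSSs) than lost regions. Of the gained regions, 218 (15.1%, 95% Wilson interval 13.4 to 17.1) came within 1 kb of an annotated TSS. Of the lost regions, 1747 (34.4%, 33.1 to 35.7) did, of all regions 30.7%, and of the 10109 regions called in all 5 lists 51%. The median distance to a TSS was 10669.5 bp for gained, 4649 bp for lost and 692 bp for regions in all 5 lists. Between 10 and 100 kb from a TSS lay 48.6% of gained and 32.6% of lost regions. By annotation 47.3% of gained regions were intronic, 32% intergenic and 20.7% overlapped an exon, compared with 34%, 28.2% and 37.7% of lost regions. Regions of 1 list share their library, so these intervals cover counting error alone and the 2 sets were not tested against each other. The share of single peaks of a list within 1 kb of a TSS was 38.8% and 39.4% in Ma_1014 and Ma_1039 and 35.0%, 33.9% and 35.5% in Ma_1057, Ma_1064 and Ma_1069. The peaks of gained and lost regions are among those counted, so this share is not independent of the contrast above. It was lower in each ΔEcad list than in each Ecad list, by 4.33 percentage points between means (exact two-sided permutation p = 0.1, the smallest possible). In the males the difference ran the other way, at 2.13 points higher in ΔEcad, with overlapping groups (exact permutation p = 0.667, where 4 lists cannot give less than 0.33).

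**Figure D1:**
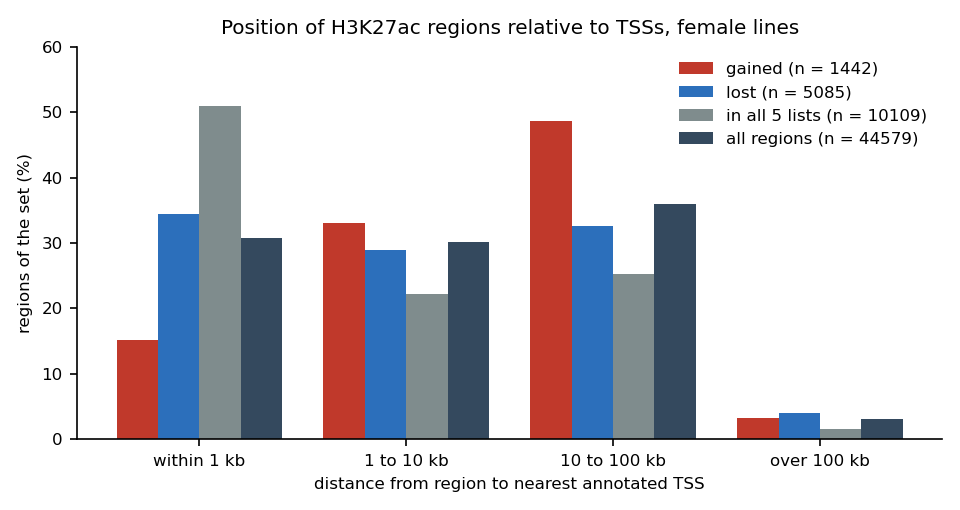
Share of regions (%) in 4 classes of distance from the region to the nearest annotated TSS, for gained, lost, shared (called in all 5 female lists) and all regions. Gained regions have the lowest bar within 1 kb (15.1%) and the highest between 10 and 100 kb (48.6%).

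Gained regions were also wider than lost regions, though narrower than regions called in all 5 lists. The median width of a merged region was 1776 bp for gained, 1110 bp for lost and 2510 bp for regions in all 5 lists. A region joined from 3 lists is wider than one from 2 by construction. Within single lists, the peaks covered a median of 1394, 1166 and 1299 bp of a gained region in Ma_1057, Ma_1064 and Ma_1069, against 969 and 833 bp of a lost region in Ma_1014 and Ma_1039. These per-list values did not overlap, although ΔEcad peaks were narrower as a whole. They still come from regions selected by calls in 3 or in 2 lists, so they are not free of the rule. Regions of at least 5 kb numbered 73 among gained (5.06%) and 25 among lost regions (0.492%). Of all regions 4.22% were that wide, and of regions in all 5 lists 15.3%, so the gained share was near that of all regions. Each peak was given the percentile of its −log10 q within its own list, where 100 is the strongest. The median of the mean percentile was 53.0 for gained and 35.8 for lost regions, and 54.5% of gained against 27.1% of lost regions lay above the middle of their lists. A call in 3 lists is a stricter demand than a call in 2, which can raise these percentiles by itself. By list, the median percentile of gained regions was 59.4, 49.0 and 53.1 in Ma_1057, Ma_1064 and Ma_1069. Regions called in all 5 lists stood higher there, at 73.9, 75.1 and 64.6. Lost regions had 37.6 and 34.5 in Ma_1014 and Ma_1039, against 75.7 and 77.3. The median −log10 q itself overlapped between the sets, at 28.9, 22.2 and 22.2 for gained regions in Ma_1057, Ma_1064 and Ma_1069 and 24.1 and 19.6 for lost regions in Ma_1014 and Ma_1039.

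The strongest gained region lay in Nav2 (chromosome 7, 48890513 to 48909435), which encodes a neuron navigator protein that binds microtubules. It spanned 18923 bp, held a TSS, and had −log10 q values of 413, 402 and 411 in Ma_1057, Ma_1064 and Ma_1069. The 3 lists were close to each other there. Another intronic Nav2 region (49204602 to 49214517) came next, at 345, 214 and 351, with the lowest value in Ma_1064. Close behind was a region 52.6 kb from Lmo2, a LIM-domain partner of blood and endothelial transcription factors, at 394, 146 and 382. A peak of an Ecad list lay 1041 bp from it. The Lmo2 promoter itself was gained in a 12295 bp region at −log10 q 109, 54.4 and 310. Foxn3, a forkhead repressor, had a gained region over 1 of its start sites at 304, 115 and 200. The rest of the 10 strongest were nearest to Prag1, Abhd2, Igsf21, Rbbp5, Adgrl2 and Zbtb10, with values between 120 and 283. Their nearest coding start sites lay from 4901 bp (Rbbp5) to 112961 bp (Igsf21) away. In Ma_1064 these regions were often the weakest, being lowest of the lists in 7 of the 10. The widest gained region, in an intron of Chn2 (19320 bp), a chimaerin that switches off the GTPase RAC, reached 121, 227 and 46.6.

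Gained regions within 1 kb of a TSS that followed in rank lay over a start site of Xpo6, an exportin that carries actin out of the nucleus, of Dact2 and of Sbk1, or of noncoding transcripts nearest to Zfp704 and Gadl1. An Ecad peak lay 276 bp from the Sbk1 region. Foxn3, Xpo6 and Sbk1 were not among the genes with a gained promoter, which were counted over all start sites of a gene as described below. Among nearest protein-coding genes, Tiam2, which activates RAC, had 11 gained and no lost regions of 20 in all. The gained regions lay from 3230024 to 3454075 on chromosome 17, and the 2 Mb window that holds them had 12 gained regions, the most of 1204 windows. A lost region inside the gene body (3518386 to 3519060) lay nearer to a start site of another gene, at −log10 q 13.3 and 7.15 in Ma_1014 and Ma_1039. Prag1, Il17rd, Kremen1 and Efna5 followed with 6 gained regions each. Il17rd encodes an inhibitor of FGF and RAS-MAPK signalling and had 6 gained regions of 8 in all, with none lost and none called in all 5 lists. Efna5, an ephrin ligand, also had 4 lost regions, so its locus held both kinds. In all, 1035 genes were the nearest coding gene of a gained region, 82 of them of 3 or more, and 262 were also nearest to a lost region.

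**Figure D2:**
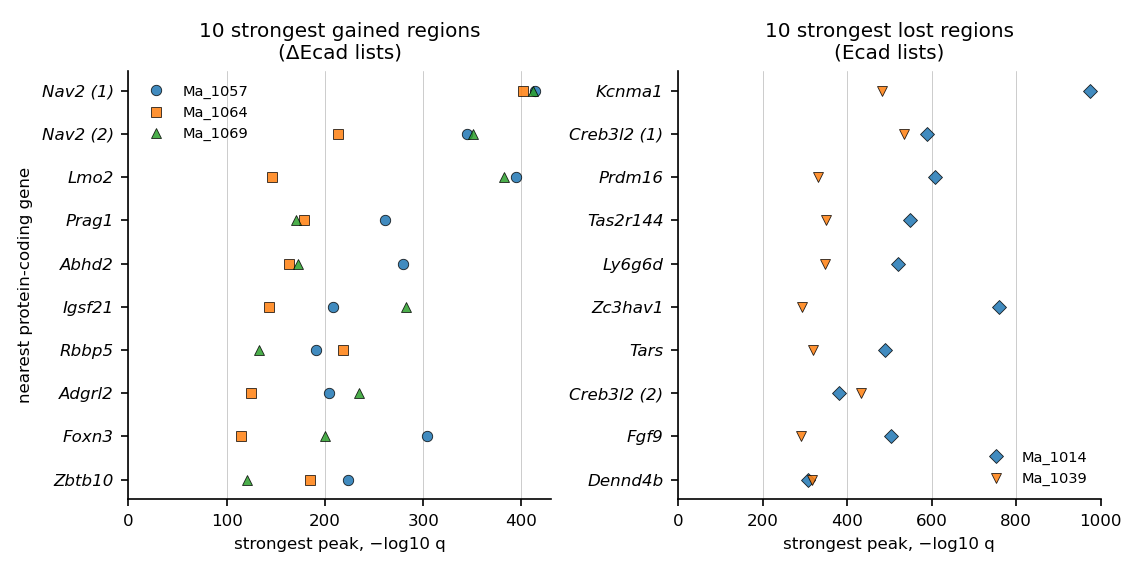
−log10 q of the strongest peak in each calling list for the 10 strongest gained regions (left, 3 ΔEcad lists) and the 10 strongest lost regions (right, 2 Ecad lists), labelled by the nearest protein-coding gene, on axes of different length. The 3 lists lie together at the first Nav2 region (402 to 413), and line Ma_1014 reaches 975 at Kcnma1.

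The strongest lost region lay at the promoter of Kcnma1 (chromosome 14, 24010448 to 24017301), the pore subunit of a calcium-activated potassium channel. Its −log10 q was 975 in Ma_1014 and 482 in Ma_1039. An intronic region of Creb3l2, a membrane-bound transcription factor of the secretory pathway, was next, at 589 and 535, and another Creb3l2 region was among the 10. Prdm16, a zinc finger regulator of cell fate, had an intronic region at 608 and 332. Regions nearest to Tas2r144, Ly6g6d, Zc3hav1, Tars, Fgf9 and Dennd4b completed the 10, with values between 290 and 760. The nearest coding start site can be far: the Tars region lay inside Adamts12, 111383 bp from it, and the Fgf9 region 397746 bp. The Ly6g6d region overlapped Ly6g6f. Line Ma_1014 had the higher value in 8 of the 10. Lost TSS regions that followed were nearest to Plxna1, Vmn1r183, Copg2, Tas2r137, Ubn2, Gpr155, Fam53b and Cryab, the small heat shock protein αB-crystallin, at 241 and 199. Those of Plxna1 and Gpr155 lay by start sites of noncoding transcripts, 46652 and 30982 bp from a coding one. The widest lost region, over a start site of Fam53b, spanned 17718 bp and reached 249 and 135, and the next widest lay near Vangl1, a planar cell polarity protein, in Nrp2, a semaphorin receptor, near Plekhb2 and at Efhd2. Macrod2, a large gene, was nearest to 14 lost and no gained regions, and Grm7, a glutamate receptor, to 10. Gnao1, the G protein subunit αo, had 9 lost regions of 10 in all, Gse1 had 9 of 23 and Zfp608 9 of 34, none of them with a gained region. The lost regions had 3476 nearest coding genes, 333 of them with 3 or more.

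Part of the lost set sat in 1 stretch of chromosome 6, from 28 to 42 Mb, which was chosen after its values were seen. The stretch ran out from the 2 Mb window of that chromosome with most lost regions. It was extended while the median peak percentile of both Ecad lists stayed above 50. It held 77 lost (16.8%, against 11.4% of all regions) and 4 gained of 458 regions. Among its 2 Mb windows the one from 30 to 32 Mb had 26 lost of 99 regions, the most of any. Windows elsewhere came close, with 25 lost of 73 regions on chromosome 11 (114 to 116 Mb) and 25 of 86 on chromosome 8 (70 to 72 Mb). Of the 10 strongest lost regions 3 lay there, among them both Creb3l2 regions, and of the 10 strongest lost TSS regions 4 did (Zc3hav1, Copg2, Tas2r137 and Ubn2). At the 69 regions of the stretch called in all 5 lists, the median percentile was 99.7 in Ma_1014, 99.5 in Ma_1039, and 64.2, 79.6 and 93 in Ma_1057, Ma_1064 and Ma_1069. High ranks of the Ecad lists there follow in part from how the stretch was chosen. Over all autosomes, regions called in all 5 lists had medians of 75.7 and 77.3 in Ma_1014 and Ma_1039. In Ma_1057, Ma_1064 and Ma_1069 these were 73.9, 75.1 and 64.6. Within the stretch, the male ΔEcad line Ma_1062 stood at 98.9 at such regions, against 91.6, 72.6 and 62.0 in Ma_1007, Ma_1181 and Ma_1456. DNA copy number was not measured here, and the part of such a regional difference in the result was not tested. Without the stretch 5008 lost and 1438 gained regions remained. Across chromosomes the lost share ran from 5.12% on chromosome 12 to 17.5% on chromosome 8, and the gained share from 2.06% on chromosome 5 to 4.67% on chromosome 12. Windows with at least 4 peaks in each Ecad list and none in the ΔEcad lists numbered 3, on chromosome 4 (36 to 38 Mb) and chromosome 8 (20 to 22 and 50 to 52 Mb). The other way, a window on chromosome 3 (140 to 142 Mb) had 11, 5 and 11 peaks in Ma_1057, Ma_1064 and Ma_1069, 0 and 1 in Ma_1014 and Ma_1039, and 4 gained regions.

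**Figure D3:**
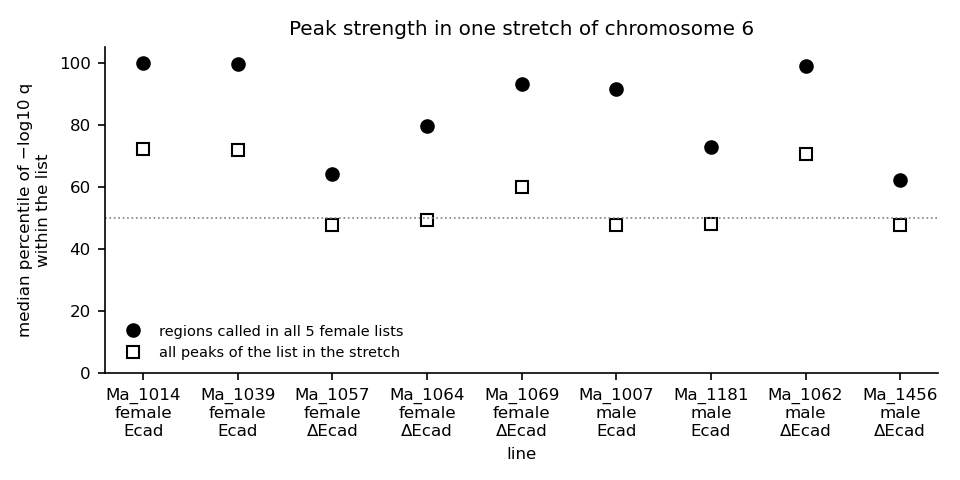
Median within-list percentile of −log10 q (y axis, 100 is the strongest peak of a list) in the chromosome 6 stretch, for each of 9 lines, at the regions called in all 5 female lists (filled circles) and over all peaks of the list there (open squares). The dotted line marks a percentile of 50. Lines Ma_1014, Ma_1039 and Ma_1062 stand above 98 at the shared regions, and Ma_1057 and Ma_1456 lie below 65.

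Promoters were also called gene by gene, a promoter being the span within 1 kb of any TSS of a gene. Of 20807 autosomal protein-coding genes, 66 (0.317%) had a promoter called in all 3 ΔEcad and neither Ecad list, and 1187 (5.7%) the reverse. The strongest gained promoter was that of Cyp7a1, the rate-limiting enzyme of bile acid synthesis, at −log10 q 164, 144 and 267 in Ma_1057, Ma_1064 and Ma_1069, and no male list had a peak there. The merged region around it was called in all 5 female lists, since peaks of the Ecad lists lay farther from the start site. Dact2, an inhibitor that binds Dishevelled in Wnt signalling, stood at 147, 79.0 and 129, and its promoter was called in all 4 male lists. Lmo2, Tiam2, Lalba (α-lactalbumin), Dop1b, Cobl, Kremen1, Gm3371 and Cep112 completed the 10 strongest gained promoters. Lost promoters were led by Kcnma1, by Mest, an imprinted gene, at 1581 and 446 in Ma_1014 and Ma_1039, which lies in the same stretch of chromosome 6, and by Polr2f, Ldhd, Zc3hav1 and Tmod1. At Polr2f, single peaks of 27406 bp in Ma_1014 and 27380 bp in Ma_1039 also spanned the promoter of its neighbour Sox10 (−log10 q 896 and 414). Sox10 had peaks in all 5 lists, at 202, 182 and 226 in the ΔEcad lists.

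Genes of the β-catenin pathway held the highest share of gained regions among the 12 gene lists. The list of 15 targets and feedback genes was chosen with results of these data known, and the study had named Axin2, Nkd1, Notum, Apcdd1 and Sp5 from these lines, so its count is not independent evidence of a direction. The promoters of Sp5, Lef1 and Tcf7 were gained and none was lost, where 0.317% and 5.7% were over all genes. Sp5, a repressor that is itself a Wnt target, had −log10 q values of 40.02, 24.9 and 49.3 in Ma_1057, Ma_1064 and Ma_1069. Lef1, a DNA-binding partner of β-catenin, had 44.0, 22.2 and 39.995. Tcf7, another such partner, had 81.8, 16.9 and 91.9. Line Ma_1064 was the lowest at all 3 promoters. The same promoters had peaks in both male Ecad lines, for Tcf7 at 188 in Ma_1007 and 291 in Ma_1181, and in the male ΔEcad lines only Lef1 had one, at 41.6 in Ma_1456. Counting regions in the gene body or nearest to the gene, 7 of 15 genes had a gained region (46.7%, against 5.28% of all coding genes) and 1 had a lost region (18.1% of all coding genes). Of the 96 regions of these genes 16 were gained (16.7%) and 1 was lost (1.04%). Sp5 had 4 gained regions, Lef1 and Znrf3, a ubiquitin ligase that removes Wnt receptors, 3 each, Tcf7 and Tnfrsf19 2 each, and Axin2 and Nkd1 1 each. The pattern did not extend to every member. Axin2, a scaffold of the complex that degrades β-catenin, had a promoter peak in all 5 lists, at 246 and 93.4 in Ma_1014 and Ma_1039 and 163, 104.6 and 122 in Ma_1057, Ma_1064 and Ma_1069, so that its groups overlapped. The promoters of Nkd1 and Apcdd1 had peaks in Ma_1057 and Ma_1069 but not in Ma_1064, and Notum, Rnf43, Dkk1, Dkk4 and Wif1 had none in any of the 5 lists. Of the gained Znrf3 regions 2 were also counted for its neighbour Kremen1, a DKK receptor.

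Genes of MHC class I presentation and the interferon response held a high share of lost regions. None of 16 had a gained region, but 5.28% of all coding genes had one, so a count of 0 is near that share. The promoters of 5 were lost (31.2%, against 5.7% over all genes). Among these were Tapbp, which loads peptides onto MHC class I, the signal transducer Stat2, and the interferon-induced Ifit3 and Isg15. Stat2 stood at −log10 q 27.9 in Ma_1014 and 17.8 in Ma_1039, and Ifit3 at 18.96 and 48.6. Tapbp stood at 15.9 and 15.3 and Isg15 at 14.7 and 12.4. The highest of the 5 promoters reached 48.6, and Tapbp and Isg15 lay below the lowest −log10 q kept in lists of equal length (17.6 in Ma_1014 and 16.6 in Ma_1039), so that 2 of the 5 rest on peaks that the equal lists drop. Of the 22 regions of the list 9 were lost (40.9%, against 11.4% of all regions). B2m, the light chain of MHC class I, had a peak in all 5 lists, at 127 and 193 in the Ecad lines and 38.6, 113 and 23.9 in Ma_1057, Ma_1064 and Ma_1069. Irf9 was at 167 and 156 in the Ecad lines and at 10.3 and 12.4 in Ma_1057 and Ma_1064, with none in Ma_1069. In the males the Stat2 and Ifit3 promoters were called in both Ecad lines and in Ma_1062, and that of Ifit3 in Ma_1456 as well. The Isg15 promoter was called in no male Ecad line and in the male ΔEcad line Ma_1456.

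Other lists held both gained and lost members. Over all coding genes 5.28% had a gained and 18.1% a lost region, and 0.317% had a gained and 5.7% a lost promoter. Of all regions 3.23% were gained and 11.4% lost. Among steroid receptor and oestrogen response genes, the promoter of Esr1, oestrogen receptor-α (chromosome 10, 4611593 to 5005614), was gained at −log10 q 41.1, 19.9 and 13.7, and 4 of its 6 regions were gained and none lost. The strongest of these, in an intron at 4985396 to 4988303, reached 85.4, 71.0 and 121. Esr1 was named in the study from these lines and is likewise not independent evidence. The gene had a promoter peak in 1 male list, Ma_1007. Of the 58 regions of that list 7 were gained (12.1%) and 3 lost (5.17%), with further gained regions at Nrip1 and Pgr. RAS-MAPK feedback genes had gained regions at 8 of 21 genes, among them 4 at Dusp4, a MAP kinase phosphatase, and 3 at Spry2, whereas the promoter of Egr1, an immediate early transcription factor, was lost. Their 201 regions were gained in 7.46% and lost in 4.48%. Of 20 YAP and TEAD genes, the promoters of Ccn2 and Crim1 were lost, at 62.8 and 25.5 and at 92.9 and 37.7, and the upstream Hippo regulator Wwc1 had 4 gained regions and none lost. The 150 regions of that list were lost in 7.33% and gained in 4%. Pigment cell genes had gained regions at 3 and lost regions at 9 of 16 genes, and of their 157 regions 4.46% were gained and 12.7% lost, near the shares of all regions. Dct, a melanin enzyme, had 7 lost regions and 5 called in all lists, Slc24a5, a melanosome ion exchanger, had 5 gained and none lost, and the Oca2 promoter was lost at 138 and 99.8. Neural crest factors had lost regions at 12 of 16 and gained regions at 5, and the Nr2f1 promoter was gained at 24.98, 21.1 and 8.79 although 3 other regions of that gene were lost. Their 194 regions were gained in 4.12% and lost in 11.3%, close to the 3.23% and 11.4% of all regions. These genes have many regions each, which raises the share of genes with any.

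Axon guidance genes had lost regions at 19 of 34 (55.9%, against 18.1% of all coding genes) and gained regions at 7 (20.6%, against 5.28%). Of their 326 regions 12.3% were lost and 5.83% gained, against 11.4% and 3.23% of all regions. The promoters of the plexins Plxna1 and Plxnb1 and of the ephrin Efna1 were lost, and that of Slit2, a repellent ligand, was gained. Robo1, a receptor of Slit ligands, had 5 gained and 2 lost regions, and Nrp2 5 lost and none gained. TGF-β and BMP genes had lost promoters at Tgfb1, at 141 and 60.4, and at Tgfbr1, and gained regions at 5 of 17 genes, with 3 at Id2, and their 126 regions were gained in 7.14% and lost in 10.3%. Cadherin and catenin genes had lost regions at 8 of 18, with 2 each at Cdh2, Cdh13, Cdh19, Ctnna1 and Afdn and 1 at Ctnnb1, and gained regions at Cdh6 (1) and Cdh11 (2). Of their 134 regions 9.7% were lost and 2.24% gained, both below the shares of all regions. No promoter of that list was gained or lost. Invasive state genes had no gained or lost promoter, with lost regions at 8 and gained regions at 3 of 17 genes, of which Nrp1 had 3 gained and 1 lost, and 5.5% of their 109 regions were gained and 12.8% lost. Integrin, laminin and collagen genes had none either, with lost regions at 6 and gained regions at 5 of 28, and 3.91% of their 179 regions gained and 3.35% lost.

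**Figure D4:**
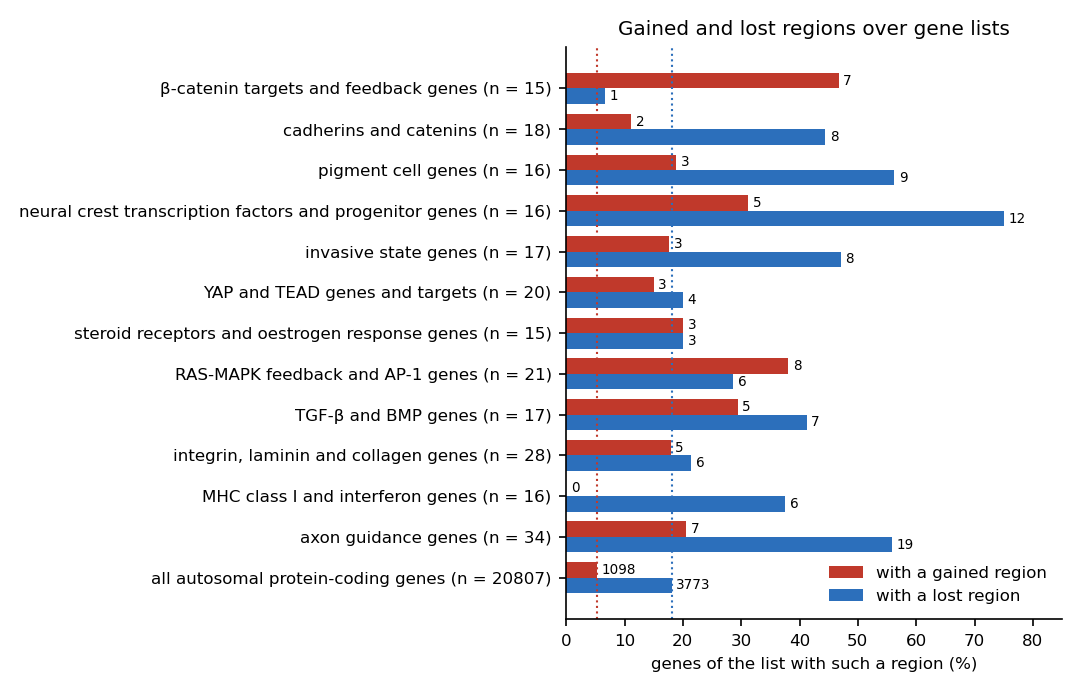
Share of the genes of each list (%) with at least 1 gained (red) or lost (blue) region in the gene body or nearest to the gene, with the number of genes at each bar. Dotted lines mark the shares over all autosomal protein-coding genes (5.28% gained, 18.1% lost). The β-catenin list reaches 46.7% for gained regions and the MHC class I and interferon list has none.

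Short sequence motifs were counted in the 300 bp around the summit of each region, on both strands: AP-1 (TGANTCA), TCF/LEF (CTTTGAT or CTTTGAA), TEAD (GGAATG), the E-boxes CATGTG and CACGTG, SOX (ACAAAG) and the oestrogen response element. The reverse strand of the SOX motif (CTTTGT) differs from the TCF/LEF motifs after their shared CTTTG, so no stretch counts for both in the same place, while TCF/LEF and AP-1 matches can overlap in TGA. A TCF/LEF match lay in 202 of 1224 gained regions over 1 kb from a TSS (16.5%, Wilson 14.5 to 18.7), in 12.9% of lost, 12.7% of shared and 13.5% of all such regions. AP-1 matches lay in 8.91% of gained, 10.3% of lost and 10.4% of all. SOX matches lay in 27.6%, 28.8% and 28.1%, and TEAD matches in 15.7%, 15.5% and 16.3%. The E-box CATGTG lay in 21.4%, 22.5% and 22.3%, and CACGTG in 4%, 3.15% and 3.46%. These regions share their lists, so the interval covers counting error alone. The oestrogen response element lay in 0 of 1224 gained windows, in 2 of 3338 lost and in 0.055% of all, too rare to compare. A match is a short string and not evidence of binding, and the Tcf7, Lef1 and Sp5 sequences printed above hold no TCF/LEF match. Base composition was alike in these windows, with a median GC of 45% in gained, 44.3% in lost and 44.7% in all, and 7.84%, 8.03% and 9.11% were mostly repeats. Within 1 kb of a TSS it was not, as gained windows held a mean of 6.34 CpG dinucleotides and lost windows 16.9, against 14 in all such windows.

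Motif shares were tested between lines on the 13129 strongest peaks of each list over 1 kb from a TSS. TCF/LEF matches lay in 13.3% and 13% of these peaks in Ma_1014 and Ma_1039 and in 13.1%, 13.8% and 14.2% in Ma_1057, Ma_1064 and Ma_1069. The groups overlapped, and the difference of 0.567 points had an exact permutation p of 0.3 (Benjamini-Hochberg adjusted over 7 motifs, 0.7). The E-box CATGTG, a site of MITF and related factors, was lower in each ΔEcad list, at 20.8%, 21.6% and 21.3% against 22.1% and 22.3% (exact permutation p = 0.1, adjusted 0.7). No motif could pass the threshold with 5 lists. With windows of 500 bp the difference was 2.28 points for TCF/LEF, -0.611 for TEAD, -1.29 for CATGTG and 0.0279 for the oestrogen response element, each with an exact permutation p of 0.1.

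The 4 male lists were not used by the rule. Gained regions had a peak in 73.4% and 33.7% of cases in the male Ecad lines Ma_1007 and Ma_1181 and in 18.4% and 28.2% in the male ΔEcad lines Ma_1062 and Ma_1456. The male difference was thus opposite to the female one, at -30.25 points (exact two-sided permutation p = 0.33, the smallest that 4 lists allow). Without Ma_1007 it was -10.37 points. Over all regions the shares were 69.1%, 47.2%, 46.6% and 52.5%, so Ma_1007, the longest list with 40824 peaks, was high throughout. In the other 3 male lists gained regions were called less often than all regions. Of the gained regions 2 (0.139%) were called in both male ΔEcad and neither male Ecad list, and 194 (13.5%) the other way round, against 1.04% and 4.37% of all regions. Lost regions had peaks in 62.8% and 45.3% in male Ecad and 44.7% and 44.5% in male ΔEcad (difference -9.45 points, exact permutation p = 0.33). This was close to the male difference over all regions, -8.6 points, and without Ma_1007 it was -0.747 points. Of the lost regions 351 (6.9%) were called in both male Ecad lists alone and 103 (2.03%) in both male ΔEcad lists alone. No male list called 253 gained (17.5%) and 793 lost regions (15.6%), both below the 19.5% of all regions.

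**Figure D5:**
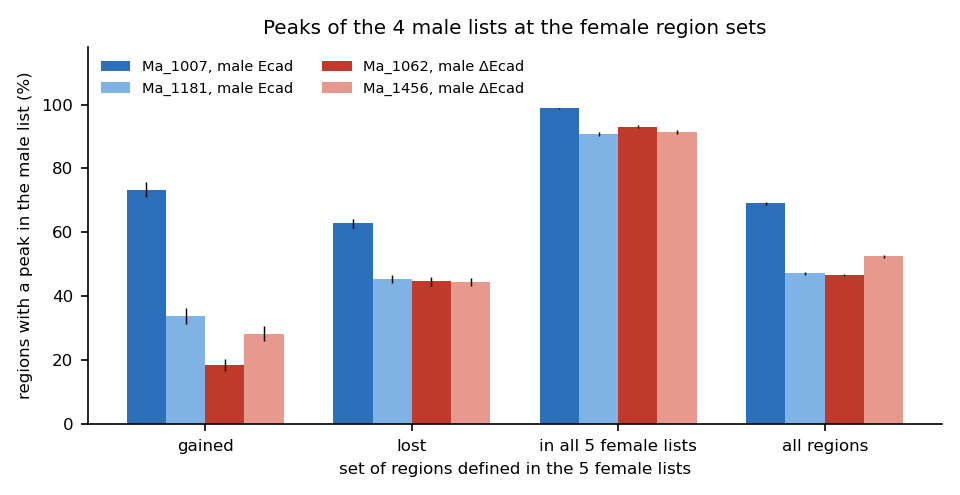
Share of regions (%) with a peak in each of 4 male lists, for the gained, lost, shared and all regions of the female lists, with 95% Wilson intervals of the count. At gained regions both male Ecad bars (73.4% and 33.7%) stand above both male ΔEcad bars (18.4% and 28.2%).

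The comparison was repeated with each list cut to its 20350 strongest peaks, the length of Ma_1069. This dropped 27.3% and 28.6% of peaks in Ma_1014 and Ma_1039, 18.9% in Ma_1057 and 29.3% in Ma_1064. The lowest −log10 q kept was 17.6 and 16.6 in Ma_1014 and Ma_1039, against 10.02 in Ma_1057 and 13.9 in Ma_1064. Ma_1069 was kept whole, with a lower value than these. Covered length was 40.3 and 40.4 Mb in Ma_1014 and Ma_1039, and 31.4, 34.2 and 29.1 Mb in Ma_1057, Ma_1064 and Ma_1069. The cut thus matched peak number, but neither the weakest peak kept nor covered length. Of 34762 regions 1454 were gained (4.18%) and 3179 lost (9.15%), so the gained count hardly moved while the lost count came down from 5085. Of the full gained set 965 regions (66.9%) overlapped a gained region of the equal lists, which is 66.4% of those, and of the full lost set 2438 (47.9%) overlapped a lost one, which is 76.7% of those. TSS regions were 18.6% of gained and 37.9% of lost regions, and the median TSS distance was 9827 and 4068 bp. Gained regions thus remained farther from TSSs. The male difference at gained regions kept its direction, with 52.5% and 34.8% called in Ma_1007 and Ma_1181 and 23.6% and 28.7% in Ma_1062 and Ma_1456, whereas at lost regions it was 43.1% and 48.9% against 51.2% and 40.8%.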

How the data were processed

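The data were the deposited H3K27ac peak lists of 9 mouse melanoma lines. Per the submitters' processing notes, reads were handled with Bowtie2 2.4.5, MACS2 2.2.7.1 and deepTools 3.5.1.0.0 on GRCm38 (mm10), and each line was called alone. The peak caller's settings and the input used for each list are not given in the sources used here. Each deposited list gave a score (column 5), the fold enrichment as a linear ratio, the −log10 p and −log10 q of every peak, and the summit offset in bp. The lowest −log10 q lay just above 5. The lists hold no reads, so depth is unknown. The study aimed at a common depth.

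Peaks on 19 autosomes were joined where they overlapped or touched, and a list called a region by at least 1 bp. Position was taken from GENCODE M21 and sequence from RefSeq GRCm38. Lines were grouped by the labels' sex and genotype, and no numbering pairs them. Lines were the unit of every test. Differences in list properties, motif shares and male calls were set against all possible assignments of lines to groups (exact permutation, two-sided) in Python 3.11.15 with SciPy 1.17.1, and the scripts were checked on simulated lists. P-values measure the spread between lines. Regions and gene lists were described without a test. Genes were named as the 10 strongest regions and promoters of each set by mean percentile, the 5 widest, the 5 genes with most regions, and members of 12 gene lists. Members and lists were chosen with earlier results of these data known. Alternatives were equal list lengths, a −log10 q of at least 10, cover of at least 50%, joining over 1 kb, peaks of at least 500 bp, protein-coding TSSs, motif windows of 500 bp, all distal peaks, and leaving out each line. Chromosome X, Y and unplaced peaks and the 4 input libraries were left out. A member of the gene lists is counted but not reported here.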

Additional observations from a re-analysis of the deposited data

Results flagged for a closer look

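On chromosome X, which lay outside the comparison, the same rule gave 23 gained regions (2.19% of 1048) and 210 lost regions (20%), beside 3.23% and 11.4% on the autosomes. Among the nearest genes of the gained X regions was Grpr, the gastrin-releasing peptide receptor, named after its values were seen. Peak numbers on X were 696 and 673 in Ma_1014 and Ma_1039 and 527, 452 and 379 in Ma_1057, Ma_1064 and Ma_1069, which did not overlap. At the regions gained in females, male ΔEcad lists had fewer peaks than male Ecad lists, by -30.25 percentage points between means, with no overlap. The female direction is fixed by the rule, and the difference between the sexes was not tested.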

How the results depend on the processing

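Gained regions numbered 1145 to 1454 under the settings that keep all 5 lists, and 1646 to 3387 with 1 list left out, the highest without Ma_1069 (3387) and without Ma_1064 (2633). Lost regions numbered 3179 with equal list lengths, 4482 to 6862 under the other settings, and 5599 to 8736 with 1 list left out, the highest without Ma_1039 (8736) and without Ma_1014 (7962), when 1 Ecad list alone made the call. The TSS share of gained regions was 18.6% with equal lists, 21.5% with 50% cover, 17.3% for peaks of at least 500 bp and 9.92% with protein-coding TSSs, and 14.4 to 17.8% with 1 list left out. The share of lost regions was 37.9%, 40.4%, 35.5% and 30.9% under these settings, 37.4% at a −log10 q of at least 10, 31.75% with peaks joined over 1 kb, and 30.4 to 36.1% with 1 list left out. It exceeded the gained share under each. Without the chromosome 6 stretch, a choice made after seeing the data, 1438 gained and 5008 lost regions remained. The male difference at gained regions was -10.4 to -50.0 points with 1 list left out, weakest without Ma_1007. At lost regions it was 0 with equal lists and -0.747 to -18.2 points with 1 list left out. The other list properties kept their direction. Of the motifs, the SOX difference was 0.0406 points with 500 bp windows and the oestrogen response element difference -0.0127 points without Ma_1014 (to 0.0330 without Ma_1039), both opposite in sign to their other values. No paired analysis was possible because the labels give no replicate numbers and pair no lines. With 5 lists no exact test could reach 0.05.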
